A study of Mus musculus with 9 samples.

Results

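The 31 genes described here carry the cholesterol economy of the cell, and their transcripts were followed through cultured mouse embryonic lung. They were chosen by symbol from a table of 55286 genes, all 31 were found, and all 31 were among the 15158 genes with enough counts to test. By role, 18 encode enzymes of cholesterol synthesis, 7 act in SREBP control and uptake, and 6 act in the liver X receptor (LXR) response and export. RNA was sequenced from 3 groups of 3 libraries. The first group held explants of wild-type E11.5 lung kept for 72 h in culture with EPZ5676 (pinometostat), a small molecule inhibitor of the histone H3 lysine methyltransferase DOT1L. The second group, Control, held explants after the same 72 h of culture without it, and the third held wild-type lung taken at E11.5 and not cultured. Dose, strain, medium and vehicle are not given in the labels. Nothing there ties a library to its own embryo or explant, so the p-values reflect library to library spread, some of which may be technical. The tissue label is lung and the cell type label is a primary lung cell, but the material is whole organ RNA, so fewer cells of a type and less RNA per cell cannot be told apart.

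Cells build cholesterol from acetyl-CoA. The mevalonate arm makes isoprene units, these are joined to squalene, squalene is closed to lanosterol, and a chain of enzymes in the endoplasmic reticulum trims the sterol ring. When membrane sterol is low, SCAP carries the transcription factor SREBP2, encoded by Srebf2, out of the endoplasmic reticulum to be cut and sent to the nucleus, where it binds sterol regulatory elements, usually beside NF-Y, at the genes of the pathway. INSIG proteins hold SCAP back when sterol is plentiful. Surplus cholesterol is sensed as oxysterols by the LXR receptors, which turn on the export pumps ABCA1 and ABCG1. In the lung, cholesterol is a component of surfactant, and loss of enzymes late in the pathway causes malformations in mice and people.

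The promoters of 25 members were in the RefSeq promoter table (GRCm38.p6). The others are Fdps, Fdft1, Sqle, Stard4, Npc1 and Abcg1. Each window ran from 250 bases before to 50 after a RefSeq gene start, 300 bases in all, and was searched on both strands. The NF-Y box CCAAT stood in at least 1 window of 14 of 15 synthesis genes (93.3%), 4 of 5 SREBP control and uptake genes and 2 of 5 LXR and export genes. Of 10937 tested genes with a window 42.8% held it, and 41.1% of all 27025 genes with a window. Acat2, which encodes a thiolase at the entry to the pathway, was the synthesis gene without one. The sterol regulatory element core TCACNCCA stood in Hmgcs1, Msmo1 and Srebf2, that is in 12% of the members with a window, against 4.45% of the tested genes. The GC box GGGCGG stood in 14 of 15 synthesis genes and in 68.1% of the tested genes, and the E-box CACGTG in 3 of 15 and in 11.4%. The LXR element, a direct repeat of AGGTCA with 4 bases between, stood in 0 of the 25. It stood in 0 of the 10937 tested genes and in 4 of all 27025 genes with a window (0.0148%). An exact match is so rare in these windows that its absence does not set the members apart. No match of a motif overlapped a match of another motif in these windows. The 250 bases before the start are printed below for the 3 genes with the SRE core, for Hsd17b7, the synthesis gene that fell in EPZ5676 explants relative to E11.5 lung, and for Insig1, the SREBP gene with the largest SE. Sequences read 5′ to 3′ on the gene's strand, and capitals mark TCACNCCA and CCAAT on either strand (CCAAT on the opposite strand reads ATTGG).
Hmgcs1: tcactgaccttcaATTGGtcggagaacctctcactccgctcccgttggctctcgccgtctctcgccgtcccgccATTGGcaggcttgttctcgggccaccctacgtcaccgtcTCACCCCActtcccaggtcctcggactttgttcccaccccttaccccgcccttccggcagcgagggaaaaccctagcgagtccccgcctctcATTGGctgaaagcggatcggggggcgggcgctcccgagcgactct
Msmo1: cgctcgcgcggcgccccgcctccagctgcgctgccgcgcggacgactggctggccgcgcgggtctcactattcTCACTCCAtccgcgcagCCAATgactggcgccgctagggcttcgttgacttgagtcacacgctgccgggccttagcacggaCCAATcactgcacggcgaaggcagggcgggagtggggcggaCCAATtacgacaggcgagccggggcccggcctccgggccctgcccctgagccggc
Hsd17b7: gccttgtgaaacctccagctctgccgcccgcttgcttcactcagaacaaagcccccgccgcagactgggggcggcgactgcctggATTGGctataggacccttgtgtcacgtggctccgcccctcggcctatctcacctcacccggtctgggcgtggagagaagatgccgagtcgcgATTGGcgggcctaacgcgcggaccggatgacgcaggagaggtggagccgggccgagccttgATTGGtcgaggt
Srebf2: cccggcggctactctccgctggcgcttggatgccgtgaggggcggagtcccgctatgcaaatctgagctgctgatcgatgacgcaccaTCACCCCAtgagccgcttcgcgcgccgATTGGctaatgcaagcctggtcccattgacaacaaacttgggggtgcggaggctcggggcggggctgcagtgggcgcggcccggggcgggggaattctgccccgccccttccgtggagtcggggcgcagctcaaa
Insig1: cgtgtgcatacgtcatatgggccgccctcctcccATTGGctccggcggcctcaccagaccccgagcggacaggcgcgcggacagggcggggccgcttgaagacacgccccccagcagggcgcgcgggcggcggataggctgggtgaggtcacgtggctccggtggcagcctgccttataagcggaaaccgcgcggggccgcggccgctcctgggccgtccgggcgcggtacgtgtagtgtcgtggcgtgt
These lie at chr13:119690101-119690350 on the plus strand for Hmgcs1, chr8:64733579-64733828 on the minus strand for Msmo1 and chr1:169969206-169969455 on the minus strand for Hsd17b7. Those of Srebf2 and Insig1 lie at chr15:82147019-82147268 and chr5:28071162-28071411, both on the plus strand. In Hmgcs1 the core lay at -137 to -130 from the start, in Msmo1 at -177 to -170 and in Srebf2 at -162 to -155. A CCAAT box lay on the downstream side in each of these 3, the nearest on that side at -45 to -41 in Hmgcs1, at -160 to -156 in Msmo1 and at -135 to -131 in Srebf2. In Hsd17b7 there were 3 CCAAT boxes and no SRE core, and in Insig1 a single CCAAT box and no SRE core. A match is a description of the letters, not of binding, which was not measured.

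**Figure D1:**
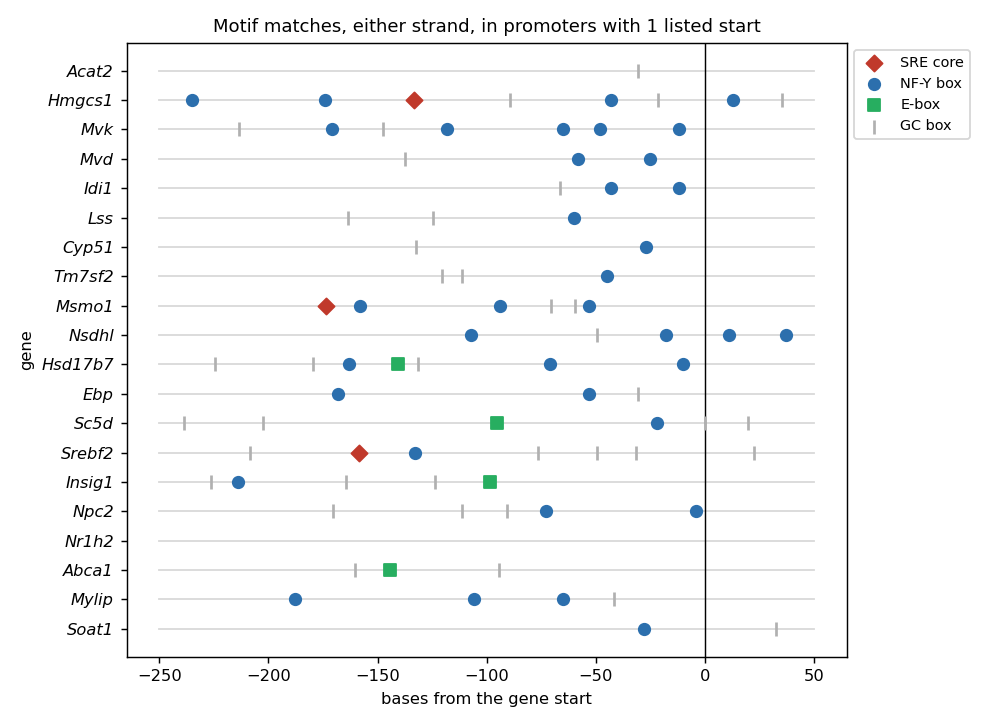
Positions of motif matches on either strand in the promoters of the 20 members with a single listed start; the horizontal axis gives bases from the RefSeq start and each line down the page is a gene. CCAAT matches appear in most synthesis genes from Hmgcs1 to Sc5d, SRE core matches in Hmgcs1, Msmo1 and Srebf2, and the legend gives the symbols of the E-box and GC box.

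The libraries held 6509563 to 9861452 counts each. The lung marker Nkx2-1 was at 84.0 to 96.6 TPM in EPZ5676 explants, 71.7 to 78.2 in Control explants and 30.1 to 38.7 in E11.5 lung. Values in TPM, the authors' length-scaled abundance, can be compared between genes, and fold changes come from the counts, so they need not match exactly. EPZ5676 2 stood low among the cultured libraries, with the lowest TPM of the 6 for 15 of 18 synthesis members and 5 of 7 SREBP members. Control 1 had liver transcripts, with a hepatocyte list sum of 300.2 TPM against 15.2 to 29.5 TPM in the other Control libraries. Control 3 had the lowest TPM of the cultured libraries for 6 of 6 LXR members. On mean log2 CPM of that group it was not the lowest, at 4.92 against 4.83 in Control 2. Xist was high in EPZ5676 2, Control 1 and Control 2 (210 to 281 TPM) and at most 0.77 TPM in the other cultured libraries, so the treated and Control groups differed in it. The transcript of Dot1l itself, the target of the inhibitor, was at 24.7, 17.4 and 20.3 TPM in EPZ5676 explants and 30.0, 23.2 and 18.8 TPM in Control explants (edgeR adjusted p = 0.743).

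In E11.5 lung the most abundant members were Hmgcs1 at 198 ± 12.2, Acat2 at 159 ± 6.83 and Fdps at 135 ± 9.98 TPM, and the least abundant were Nr1h3 at 1.80 ± 0.42 and Abcg1 at 1.67 ± 0.55 TPM (SD, n = 3). The median member stood at 36.5 TPM in EPZ5676 explants, 36.4 in Control explants and 29.1 in E11.5 lung, against 16.5, 16.1 and 15.4 TPM for all tested genes. Summed, the 31 members made up 0.208%, 0.139% and 0.184% of the TPM of the EPZ5676 libraries, 0.225%, 0.207% and 0.188% of the Control libraries and 0.136%, 0.139% and 0.148% of E11.5 lung. On this TPM share the second EPZ5676 library lay inside the range of fresh lung. As a share of counts it stood at 0.256%, above E11.5 lung at 0.229% to 0.251% and below Control at 0.359% to 0.364%.

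**Figure D2:**
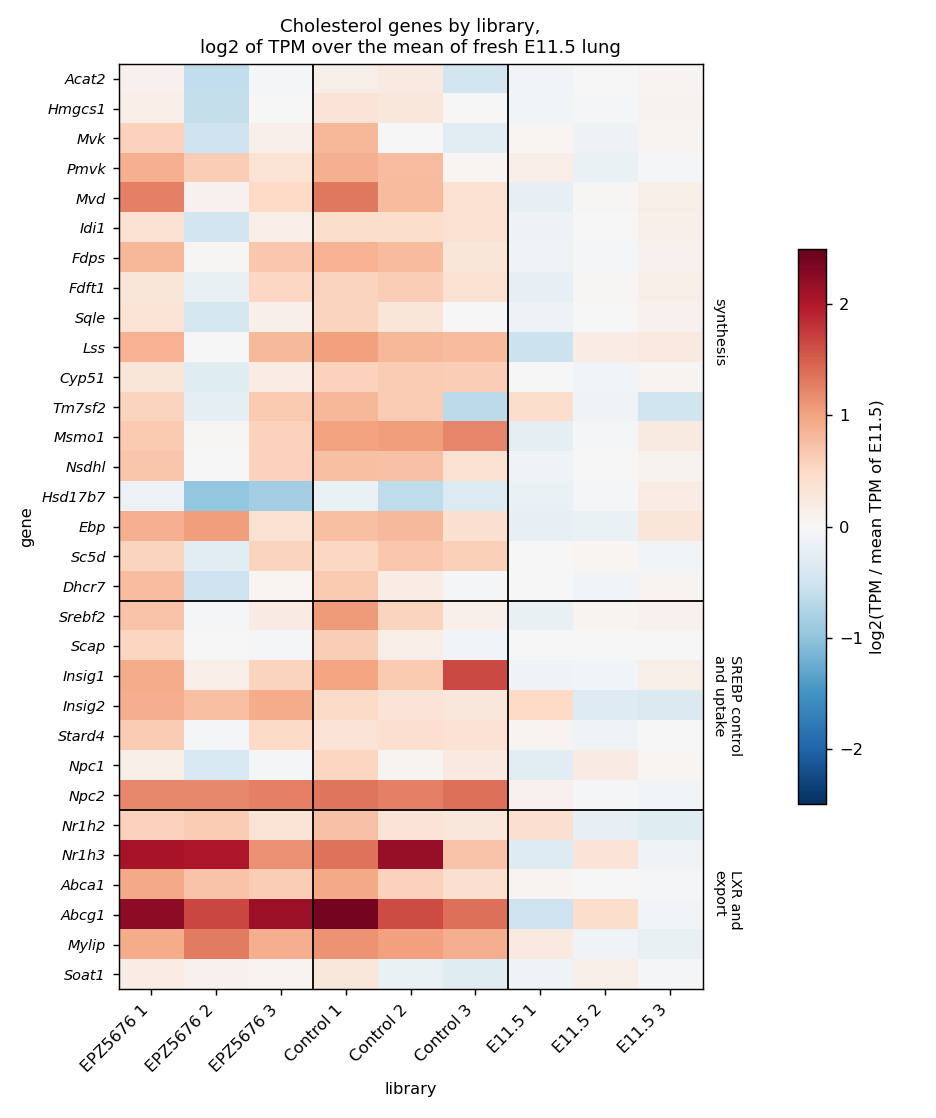
Heat map of the 31 members (rows, in the 3 roles) in the 9 libraries (columns); colour gives log2 of TPM over the mean TPM of the 3 E11.5 libraries, red above and blue below. The cultured libraries are mostly red, EPZ5676 2 is pale or blue in most synthesis rows but red in the LXR rows Nr1h3, Abcg1 and Mylip, and Hsd17b7 is blue in all 6 cultured libraries.

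The design asks what 72 h of culture did to these genes, what EPZ5676 added, and where the treated explants stood relative to fresh lung. The comparisons share groups, so they are given side by side and are not independent. With edgeR's quasi-likelihood test and an adjusted p under 0.05 over all 15158 genes, 14 members were higher and 1 lower in EPZ5676 explants than in E11.5 lung, where 22.1% of all tested genes were higher and 17.9% lower. In Control explants 22 members were higher and 0 lower than in E11.5 lung, where 21.1% of all genes were higher and 16.6% lower. Between EPZ5676 and Control explants 0 members and 0% of all genes passed. At an unadjusted p under 0.05 there were 7 members lower and 0 higher with EPZ5676, beside 2.8% and 4.14% of all genes. DESeq2 called 1 member, Cyp51, lower, and of 30347 genes it called 88 higher and 16 lower. With no filter on low counts edgeR called 67 of 30385 genes higher and 9 lower, with Cyp51 among the latter. With limma on log2(TPM + 1) it was 0 members. In TPM, 9 members in EPZ5676 explants and 18 in Control explants lay above E11.5 lung with no overlap, beside 25.5% and 19.8% of all genes. The median log2 fold change of the members was -0.19 for EPZ5676 against Control, 0.46 for EPZ5676 against E11.5 and 0.64 for Control against E11.5, with all tested genes at -0.0038, 0.019 and 0.020.

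**Figure D3:**
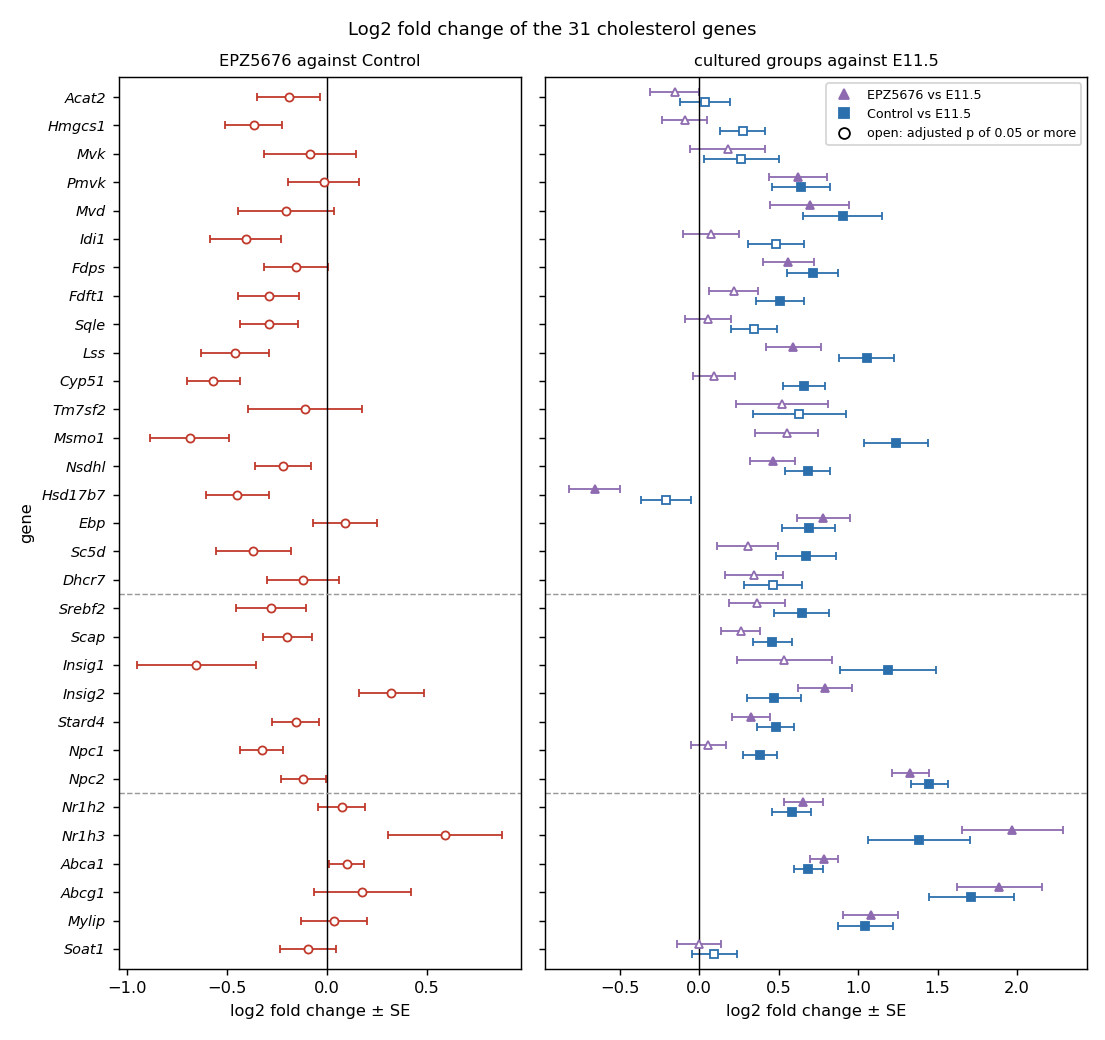
Log2 fold change ± SE of each member, with EPZ5676 against Control explants on the left and both cultured groups against E11.5 lung on the right (triangles EPZ5676, squares Control); filled symbols passed an edgeR adjusted p of 0.05. All symbols on the left are open, and 24 of 31 lie below 0; on the right most lie above 0, with Hsd17b7 the filled symbol below it.

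In EPZ5676 explants 6 of 18 synthesis genes rose and 1 fell relative to E11.5 lung, beside 22.1% and 17.9% of all genes, with a median log2 fold change of 0.32. That count of 6 was 10 without EPZ5676 2, 2 without EPZ5676 3 or E11.5 1, and 1 without EPZ5676 1 or E11.5 2, and limma on log2(TPM + 1) called 1. In Control explants 10 rose and 0 fell relative to E11.5 lung, beside 21.1% and 16.6% of all genes, with a median of 0.64, and without E11.5 2 it was 6 that rose. Against Control, EPZ5676 explants had 17 of 18 synthesis genes below, where 50.8% of all genes lay below, with a median of -0.26 and none past the adjusted threshold. The summed synthesis transcripts were at 1436, 855 and 1265 TPM in EPZ5676 explants, 1563, 1487 and 1234 TPM in Control explants and 987, 1029 and 1119 TPM in E11.5 lung. On this sum the cultured groups overlapped. On mean log2 CPM over the 18 genes they did not, with Control at 6.27 to 6.31 and EPZ5676 at 5.67 to 6.25. The second EPZ5676 library lay below every E11.5 library on both measures. In that library 9 of 18 members lay below the lowest E11.5 value, 7 inside the E11.5 range and 2 above it. Without it, 13 of 18 synthesis genes lay below Control, with a median of -0.096. Without EPZ5676 1 the median was -0.38 and 17 of 18 lay below.

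**Figure D4:**
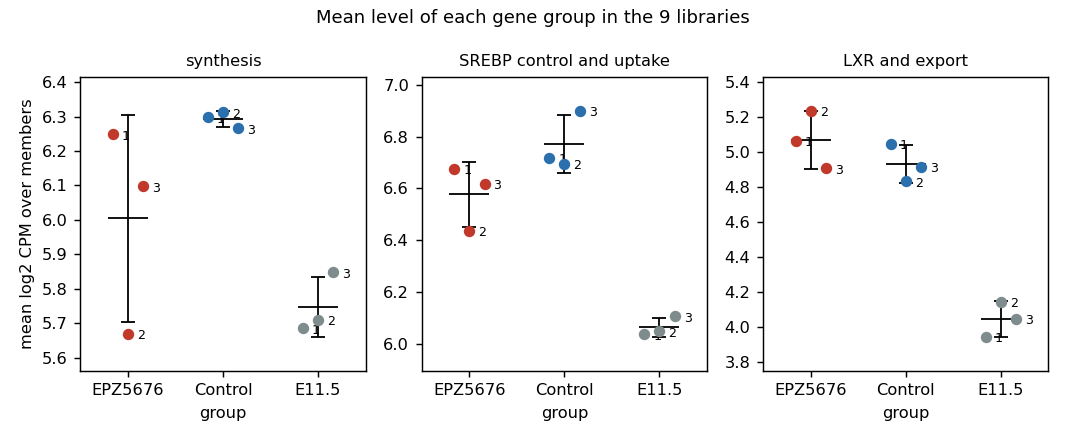
Mean log2 CPM over the members of each role in each library (points, numbered by replicate), with the group mean and SD (bar and whiskers, n = 3); each panel has its own vertical axis. The 3 Control libraries lie close together for synthesis, EPZ5676 2 lies just below the E11.5 libraries for synthesis, and the same library is the highest of the 9 for LXR and export.

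Of 8 enzymes of the sterol ring, 2 rose and 1 fell in EPZ5676 explants and 5 rose and 0 fell in Control explants, relative to E11.5 lung. Of all genes 22.1% rose and 17.9% fell with EPZ5676, close to the first counts, and 21.1% rose and 16.6% fell in Control. Msmo1 (chr8:64718139-64733792, minus strand), the C-4 methyl sterol oxidase, was at 107, 69.7 and 101 TPM in EPZ5676 explants, 136, 141 and 158 TPM in Control explants and 58.3, 66.0 and 79.2 TPM in E11.5 lung. All 3 Control libraries lay above all the others. It rose in Control explants over E11.5 lung (log2 fold change 1.24 ± 0.20, edgeR adjusted p = 0.00123) and lay at -0.69 ± 0.20 in EPZ5676 against Control (adjusted p = 0.459). Against E11.5 lung EPZ5676 explants had 0.55 ± 0.20 (adjusted p = 0.0519). Cyp51 (chr5:4081145-4104746, minus strand), the lanosterol 14-alpha-demethylase, was at 71.0, 46.3 and 65.0 TPM in EPZ5676 explants, 85.7, 89.7 and 88.0 TPM in Control explants and 57.4, 54.7 and 60.2 TPM in E11.5 lung. Here too the Control libraries stood above all 6 others, while EPZ5676 and E11.5 libraries overlapped. Its log2 fold change was 0.66 ± 0.13 for Control against E11.5 (edgeR adjusted p = 0.00332), 0.091 ± 0.13 for EPZ5676 against E11.5 (adjusted p = 0.62) and -0.57 ± 0.13 for EPZ5676 against Control. The last had an interval of -0.86 to -0.27, the smallest p of the members (0.00141) and an edgeR adjusted p of 0.279. DESeq2 called it (adjusted p = 0.0274), as did edgeR without a filter on low counts (adjusted p = 0.017), and over the other alternatives the adjusted p was 0.15 to 0.633.

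Hsd17b7, the 3-keto-sterol reductase of the C-4 demethylation, was the synthesis gene with a negative log2 fold change in Control explants against E11.5 lung. It was at 17.0, 9.59 and 10.2 TPM in EPZ5676 explants, 16.8, 12.1 and 14.7 TPM in Control explants and 16.7, 18.3 and 21.3 TPM in E11.5 lung. EPZ5676 2 and EPZ5676 3 were the lowest, while EPZ5676 1 lay inside the E11.5 range. It fell in EPZ5676 explants relative to E11.5 lung (log2 fold change -0.66 ± 0.16, edgeR adjusted p = 0.00754), and was the only member called lower by edgeR with the filter on low counts. On log2(TPM + 1) with limma the adjusted p was 0.0554. Control explants had -0.21 ± 0.16 against E11.5 lung (adjusted p = 0.316), and EPZ5676 explants -0.45 ± 0.16 against Control (adjusted p = 0.57). Its gene lies at chr1:169949535-169969241.

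Among the other ring enzymes Nsdhl, the 3-beta-hydroxysteroid dehydrogenase of the same demethylation, and Ebp, the sterol delta8-delta7 isomerase, rose in both cultured groups. Nsdhl averaged 41.6 ± 10.02 TPM in EPZ5676 explants, 47.4 ± 6.54 in Control explants and 30.6 ± 1.93 in E11.5 lung (log2 fold change over E11.5 of 0.46 with EPZ5676 and 0.68 in Control, edgeR adjusted p = 0.0252 and 0.00392). Ebp averaged 17.1 ± 3.87 TPM with EPZ5676, 15.6 ± 2.35 in Control and 9.82 ± 2.00 in E11.5 lung (0.78 and 0.69, adjusted p = 0.00389 and 0.00824), and was the synthesis gene that lay above Control with EPZ5676 (0.090). Both are X-linked, and the groups differ in Xist-high libraries, with Xist at 284, 143 and 72.5 TPM in E11.5 lung. The part of this difference in their rise over E11.5 lung was not tested. The Xist level was used as a covariate for EPZ5676 against Control only. There 16 of 18 synthesis genes lay below Control with EPZ5676, with a median of -0.32. Sc5d, the C-5 desaturase, rose in Control explants (43.9 ± 2.38 against 29.1 ± 1.14 TPM in E11.5 lung, adjusted p = 0.0183) and averaged 36.5 ± 10.9 TPM with EPZ5676. Dhcr7, which makes cholesterol from its 7-dehydro precursor, passed in neither cultured group, at 33.7 ± 14.9 TPM with EPZ5676, 36.2 ± 8.92 in Control and 29.5 ± 1.51 in E11.5 lung. The sterol C-14 reductase Tm7sf2 passed in neither, at 17.8 ± 5.47, 18.2 ± 8.36 and 13.7 ± 4.57 TPM, and spread from 8.72 to 24.5 TPM within Control.

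Of the 3 genes from squalene to lanosterol, 1 rose in EPZ5676 explants and 2 in Control explants, beside 22.1% and 21.1% of all genes. Lss, lanosterol synthase, was at 42.9, 23.3 and 41.1 TPM in EPZ5676 explants, 47.7, 41.8 and 40.5 TPM in Control explants and 16.1, 26.5 and 27.6 TPM in E11.5 lung. The Control libraries were all above E11.5 lung, and EPZ5676 2 was inside its range. Lss rose in both cultured groups over E11.5 lung (0.59 ± 0.17 with EPZ5676 and 1.05 ± 0.17 in Control, edgeR adjusted p = 0.0202 and 0.00113), and lay at -0.46 ± 0.17 in EPZ5676 against Control (adjusted p = 0.598). Fdft1, squalene synthase, rose in Control explants (73.8 ± 6.16 against 51.6 ± 6.34 TPM in E11.5 lung, adjusted p = 0.0236) and averaged 60.9 ± 14.5 TPM with EPZ5676. Sqle, the squalene epoxidase, did not pass (78.7 ± 20.6 TPM with EPZ5676, 94.4 ± 17.9 in Control and 76.3 ± 5.71 in E11.5 lung).

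In the mevalonate arm Pmvk, Mvd and Fdps, 3 of 7 genes, rose over E11.5 lung in both EPZ5676 and Control explants. Of all tested genes 22.1% and 21.1% rose. Mvd, the decarboxylase that yields isopentenyl diphosphate, was at 38.0, 17.2 and 22.7 TPM in EPZ5676 explants, 39.8, 27.8 and 20.9 TPM in Control explants and 13.9, 16.4 and 17.8 TPM in E11.5 lung. Its Control libraries spread widely but all stood above E11.5 lung (log2 fold change 0.90 ± 0.25, edgeR adjusted p = 0.0156), and the EPZ5676 group overlapped it (0.70 ± 0.25, adjusted p = 0.0454). Fdps, farnesyl diphosphate synthase, was at 240, 137 and 216 TPM in EPZ5676 explants, 248, 232 and 166 TPM in Control explants and 128, 131 and 146 TPM in E11.5 lung. EPZ5676 2 alone of the cultured libraries lay inside the E11.5 range. Fdps rose over E11.5 lung by 0.56 ± 0.16 with EPZ5676 and 0.71 ± 0.16 in Control (edgeR adjusted p = 0.0184 and 0.00601). Pmvk, phosphomevalonate kinase, averaged 33.3 ± 6.32 TPM with EPZ5676, 33.1 ± 9.45 in Control and 21.5 ± 2.56 in E11.5 lung (adjusted p over E11.5 of 0.02 and 0.0186).

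The other genes of the arm passed in neither cultured group. Acat2 averaged 144 ± 35.7 TPM in EPZ5676 explants, 159 ± 38.6 in Control and 159 ± 6.83 in E11.5 lung, with intervals of the log2 fold change over E11.5 of -0.50 to 0.19 with EPZ5676 and -0.31 to 0.38 in Control. Hmgcs1, the HMG-CoA synthase that carries an SRE core in the window above, averaged 184 ± 46.9, 230 ± 26.3 and 198 ± 12.2 TPM in EPZ5676, Control and E11.5 libraries. Its unadjusted p for EPZ5676 against Control was 0.0259 (log2 fold change -0.37 ± 0.14, edgeR adjusted p = 0.634). Idi1, the isopentenyl diphosphate isomerase, averaged 90.2 ± 26.2 TPM with EPZ5676, just below all Control libraries (116 ± 2.34; highest treated library 112.68, lowest Control library 112.8), and 86.2 ± 7.14 TPM in E11.5 lung (Control against E11.5, adjusted p = 0.0544). Mvk, mevalonate kinase, averaged 23.1 ± 8.40, 25.3 ± 10.7 and 21.1 ± 1.51 TPM in EPZ5676, Control and E11.5 libraries.

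In TPM, 4 members with EPZ5676 lay wholly below Control (Idi1, Cyp51, Msmo1 and Npc2), beside 2.59% of all tested genes. Wholly above lay 1 (Insig2), beside 5.64%. On counts relative to library size, Idi1, Npc2 and Insig2 overlapped between EPZ5676 and Control. The unadjusted p was under 0.05 for Hmgcs1, Idi1, Lss, Cyp51, Msmo1, Hsd17b7 and Npc1, all of them lower. In the fit to the 6 cultured libraries alone there were 5 such members, without EPZ5676 2 there were 3, and without EPZ5676 1 there were 11. Marker lists gave the following values beside these. Of all tested genes 4.14% were higher and 2.8% lower at an unadjusted p under 0.05, and 49.2% lay above and 50.8% below Control. The epithelium list summed to 899 to 1226 TPM in EPZ5676 explants and 601 to 964 TPM in Control explants, with 0 of 10 markers past the adjusted threshold, 3 higher at an unadjusted p under 0.05 and none listed at 0. The ciliated cell list summed to 38.7 to 183 TPM with EPZ5676 and 14.98 to 15.5 TPM in Control, with 6 of 6 tested markers higher at an unadjusted p under 0.05. The mesenchyme list summed to 2295 to 2596 TPM with EPZ5676 and 2295 to 2978 TPM in Control, with 8 of 10 markers below Control, 3 of them at an unadjusted p under 0.05, and a median log2 fold change of -0.21. Of the tested neural markers 8 of 8 lay below Control, 1 at an unadjusted p under 0.05, and of the macrophage markers 10 of 12 lay above, 4 at an unadjusted p under 0.05. None of these lists had a marker past the adjusted threshold, and the part of these cells in the members' values was not tested.

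Of 7 genes of SREBP control and uptake 3 rose in EPZ5676 explants over E11.5 lung (Insig2, Stard4 and Npc2), beside 22.1% of all genes. The median log2 fold change of the 7 was 0.36. Against Control 6 of 7 lay below, where 50.8% of all genes did, with a median of -0.20. In Control explants 7 of 7 rose over E11.5 lung, beside 21.1% of all genes, with a median of 0.48. Without E11.5 1 or E11.5 3 it was 4 of 7 that rose. On the log2(TPM + 1) scale limma called 2 of 7 in each cultured group against E11.5 lung.

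Srebf2, which encodes SREBP2 itself, was at 79.4, 47.6 and 55.4 TPM in EPZ5676 explants, 101, 71.3 and 53.0 TPM in Control explants and 42.6, 50.4 and 52.0 TPM in E11.5 lung. The Control libraries all lay above E11.5 lung, Control 3 narrowly, and the treated group overlapped both. It rose in Control explants (0.64 ± 0.17, edgeR adjusted p = 0.0151) and had 0.36 ± 0.17 with EPZ5676 over E11.5 lung (adjusted p = 0.122). Scap, its escort, averaged 18.8 ± 4.46 TPM with EPZ5676, 19.7 ± 4.86 in Control and 16.4 ± 0.17 in E11.5 lung, and rose in Control on counts (adjusted p = 0.014), but not with limma on log2(TPM + 1) (adjusted p = 0.441).

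The INSIG genes, whose proteins retain SCAP, lay on opposite sides of Control with EPZ5676. Insig1 (chr5:28071363-28078662, plus strand) was at 98.6, 58.2 and 75.7 TPM in EPZ5676 explants, 102, 81.0 and 162 TPM in Control explants and 48.6, 49.4 and 57.0 TPM in E11.5 lung. Every cultured library lay above every E11.5 library, and Control 3 stood far above the other cultured ones. Insig1 rose in Control (1.19 ± 0.30, edgeR adjusted p = 0.0148), while EPZ5676 explants had 0.54 ± 0.30 over E11.5 (adjusted p = 0.191) and -0.65 ± 0.30 against Control (adjusted p = 0.733). Control 3 also had the highest sum of the neural list, 134 TPM against 38.9 to 58.4 TPM in the other cultured libraries, and the part of those cells in the Insig1 value was not tested. Insig2 (chr1:121304353-121332589, minus strand) was at 30.2, 27 and 30.8 TPM in EPZ5676 explants, 22.4, 20.02 and 19.6 TPM in Control explants and 22.9, 12.8 and 12.6 TPM in E11.5 lung. In TPM all 3 treated libraries were above all 6 others, and the first E11.5 library lay above the 3 Control libraries. On counts relative to library size neither order held. EPZ5676 1 had 205 of 8235720 counts, Control 2 had 172 of 6509563 and E11.5 1 had 124 of 6648564. It was the SREBP member that lay above Control with EPZ5676 (0.32 ± 0.16, interval -0.040 to 0.68, edgeR adjusted p = 0.761). Over E11.5 lung it rose with EPZ5676 (0.79 ± 0.17, adjusted p = 0.00372), a call kept under all 16 alternatives, and in Control (0.47 ± 0.17, adjusted p = 0.0477), a call kept under 5 of 16.

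Uptake and intracellular transport were led by Npc2, the lysosomal protein that hands cholesterol from taken-up lipoprotein to NPC1. Npc2 (chr12:84754562-84773152, minus strand) was at 196, 196 and 203 TPM in EPZ5676 explants, 215, 204 and 219 TPM in Control explants and 90.9, 82.2 and 80.9 TPM in E11.5 lung. In TPM the cultured libraries lay far above fresh lung with little spread, and those with EPZ5676 just below Control. On counts the cultured groups overlapped, with 2746 of 6769862 counts in EPZ5676 2 and 3824 of 9861452 in Control 1. The log2 fold change over E11.5 was 1.33 ± 0.12 with EPZ5676 and 1.45 ± 0.12 in Control (edgeR adjusted p = 2.04e-05 and 1.69e-05), and -0.12 ± 0.11 between EPZ5676 and Control (adjusted p = 0.9). Its partner Npc1 was at 30.4, 20.97 and 26.8 TPM in EPZ5676 explants, 39.9, 28.8 and 32.3 TPM in Control explants and 22.5, 31.4 and 28.2 TPM in E11.5 lung. All 3 groups overlapped in TPM. On counts it rose in Control over E11.5 (0.38 ± 0.11, edgeR adjusted p = 0.0171), and EPZ5676 lay at -0.33 ± 0.11 against Control (unadjusted p = 0.0114, adjusted p = 0.532). Stard4, a soluble sterol carrier, was at 55.1, 34.5 and 49.0 TPM in EPZ5676 explants, 44.3, 47.7 and 45.7 TPM in Control explants and 37.0, 33.5 and 35.7 TPM in E11.5 lung. Control libraries were tightly grouped above E11.5 lung, while EPZ5676 2 lay inside its range. Stard4 rose over E11.5 with EPZ5676 (0.32 ± 0.12, edgeR adjusted p = 0.0478) and in Control (0.48 ± 0.12, adjusted p = 0.00882), the first a call kept under 6 of 16 alternatives.

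**Figure D5:**
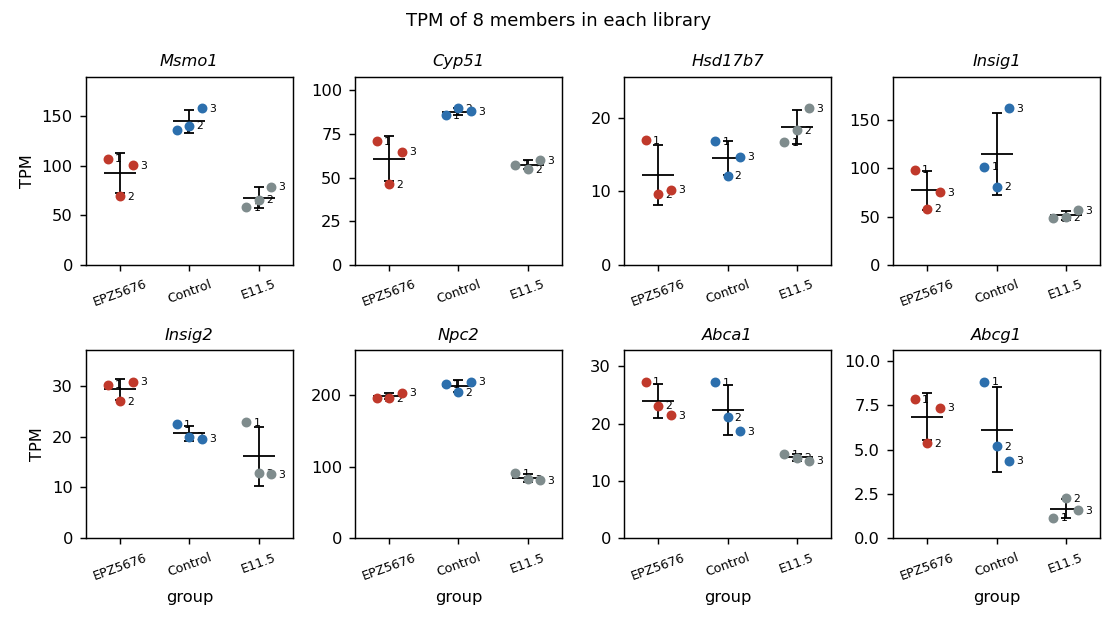
TPM of 8 members in each library (points, numbered by replicate) with the group mean and SD (bar and whiskers, n = 3); vertical axes start at 0 and differ between panels. Msmo1 and Cyp51 are highest in Control, Insig2 is highest in all 3 EPZ5676 libraries, Npc2, Abca1 and Abcg1 are high in both cultured groups, and Insig1 has a single high Control library.

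LXR and export transcripts were higher in both cultured groups. Relative to E11.5 lung 5 of 6 rose in EPZ5676 explants and the same number in Control explants, beside 22.1% and 21.1% of all genes. The median log2 fold changes were 0.93 and 0.87. The 5 were Nr1h2, Nr1h3, Abca1, Abcg1 and Mylip in both. Between EPZ5676 and Control 5 of 6 lay above, where 49.2% of all genes did, with a median of 0.085 and no unadjusted p under 0.05. Without EPZ5676 2 it was 3 of 6. That library, the lowest for synthesis, had the highest mean log2 CPM of the LXR group, 5.24. The other EPZ5676 libraries were at 5.07 and 4.91, Control at 4.83 to 5.05 and E11.5 lung at 3.94 to 4.15. On the summed TPM of the group EPZ5676 2 was not the highest, at 128 against 132 in EPZ5676 1 and 139 in Control 1.

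Nr1h3, which encodes LXR-alpha, was at 7.49, 7.28 and 3.99 TPM in EPZ5676 explants, 4.60, 8.13 and 2.95 TPM in Control explants and 1.43, 2.26 and 1.70 TPM in E11.5 lung. The cultured libraries were all above fresh lung and scattered within each group. These values rest on few counts: 56, 56 and 31 with EPZ5676, 49, 27 and 24 in Control and 9, 11 and 12 in E11.5 lung. Its log2 fold change over E11.5 was 1.97 ± 0.32 with EPZ5676 and 1.38 ± 0.32 in Control (edgeR adjusted p = 0.000753 and 0.0069), and 0.59 ± 0.29 for EPZ5676 against Control (adjusted p = 0.743). Nr1h2, which encodes LXR-beta, averaged 38.1 ± 3.95 TPM with EPZ5676, 36.4 ± 6.48 in Control and 26.5 ± 7.31 in E11.5 lung, and rose in both over E11.5 (0.65 and 0.58, adjusted p = 0.0018 and 0.00393), with overlapping TPM and no call by limma on log2(TPM + 1) (adjusted p = 0.0565 and 0.0959).

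The export pumps rose in both cultured groups. Abcg1 was at 7.85, 5.36 and 7.37 TPM in EPZ5676 explants, 8.83, 5.20 and 4.37 TPM in Control explants and 1.17, 2.26 and 1.59 TPM in E11.5 lung. No cultured library overlapped fresh lung, and the cultured groups overlapped each other (log2 fold change over E11.5 of 1.89 ± 0.27 with EPZ5676 and 1.71 ± 0.27 in Control, edgeR adjusted p = 0.000341 and 0.000752). Abca1 (chr4:53030787-53159895, minus strand) was at 27.3, 23.2 and 21.5 TPM in EPZ5676 explants, 27.2, 21.1 and 18.7 TPM in Control explants and 14.7, 14.0 and 13.6 TPM in E11.5 lung. Again both cultured groups lay above fresh lung and overlapped each other (0.78 ± 0.089 and 0.69 ± 0.089, adjusted p = 9.05e-05 and 0.000247). The interval between EPZ5676 and Control was -0.097 to 0.29 for Abca1 and -0.36 to 0.71 for Abcg1. Mylip, an LXR target whose product marks lipoprotein receptors for degradation, was at 11.6, 14.9 and 11.4 TPM in EPZ5676 explants, 13.2, 12.3 and 11.3 TPM in Control explants and 7.13, 5.69 and 5.36 TPM in E11.5 lung. It rose in both (1.08 ± 0.17 and 1.04 ± 0.17, edgeR adjusted p = 0.000745 and 0.00108). Soat1, which esterifies cholesterol for storage, did not pass in any comparison, at 36.8 ± 1.48 TPM with EPZ5676, 32.9 ± 7.15 in Control and 33.8 ± 3.10 in E11.5 lung.

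Macrophages express LXR and lysosomal genes, and their markers, like this group, rose over E11.5 lung. Across the cultured libraries the orders differed. Macrophage mean log2 CPM was 5.45, 5.27 and 5.76 in EPZ5676 explants and 5.28, 5.28 and 4.85 in Control explants. The LXR means were 5.07, 5.24 and 4.91 with EPZ5676 and 5.05, 4.83 and 4.92 in Control. The 12 macrophage markers summed to 1304 to 1729 TPM in EPZ5676 explants, 1140 to 1419 TPM in Control explants and 41.2 to 65.3 TPM in E11.5 lung. Of these markers 12 of 12 rose in both cultured groups over E11.5, and none was listed at 0. Of all tested genes 22.1% rose with EPZ5676 and 21.1% in Control. The epithelium list summed to 899 to 1226, 601 to 964 and 319 to 337 TPM in EPZ5676, Control and E11.5 libraries. Of its markers 9 of 10 were higher in each cultured group, beside the same shares of all genes. The erythroid list, in contrast, summed to 74.3 to 1055 TPM, 102 to 1202 TPM and 16950 to 21390 TPM in the same groups. The part of these shifts in the rise of the members was not tested. Without Control 1, the library with liver transcripts, 20 members were higher in Control than in E11.5 lung.

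Neighbouring genes of the pathway gave the following counts. Beside them, 22.1% of all tested genes rose and 17.9% fell with EPZ5676 relative to E11.5 lung, and 21.1% rose and 16.6% fell in Control. Of 14 tested fatty acid targets of SREBP, 7 rose and 2 fell in EPZ5676 explants and 8 rose and 0 fell in Control explants relative to E11.5 lung. Srebf1, which encodes SREBP1, averaged 63.1 ± 6.86 TPM with EPZ5676, 52.3 ± 10.8 in Control and 27.2 ± 6.07 in E11.5 lung (log2 fold change with EPZ5676 1.68 ± 0.16, edgeR adjusted p = 3.23e-05), and the desaturase Scd1 57.0 ± 4.90, 51.1 ± 8.86 and 16.7 ± 4.33 TPM (1.54 ± 0.19 with EPZ5676, adjusted p = 0.000198). Of 16 genes of sterol transport between membranes, 9 rose with EPZ5676 and 7 in Control, with 0 lower. The lipoprotein receptor Vldlr led them at 13.2 ± 0.85, 12.1 ± 1.22 and 2.81 ± 0.11 TPM (2.18 ± 0.19 with EPZ5676, adjusted p = 1.96e-05), followed by the lysosomal lipase Lipa at 50.1 ± 0.71, 56.1 ± 7.46 and 26.7 ± 3.24 TPM (0.98 ± 0.13 with EPZ5676, adjusted p = 0.000235). Of 12 LXR partners and other LXR targets, 7 rose with EPZ5676 and 7 in Control, where 1 fell. The lipid droplet coat Plin2 was at 142 ± 32.1, 125 ± 28.3 and 41.4 ± 0.91 TPM (1.90 ± 0.25 with EPZ5676, adjusted p = 0.000354), Abca7 rose by 1.68 ± 0.18 with EPZ5676, and the coactivator Ncoa5 fell by 0.40 in Control.

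Of 13 genes that process SREBP or sense sterol, 2 rose and 2 fell with EPZ5676, and 1 rose and 1 fell in Control, relative to E11.5 lung, shares no higher than those of all genes (22.1% and 17.9% with EPZ5676, 21.1% and 16.6% in Control). Those in Control were the ubiquitin ligase Rnf139 (log2 fold change 0.35 ± 0.11, edgeR adjusted p = 0.035) and Nfyb, the NF-Y subunit B (-0.63 ± 0.11, adjusted p = 0.00114), which averaged 43.8 ± 2.26 TPM with EPZ5676, 46.5 ± 5.70 in Control and 66.3 ± 6.95 in E11.5 lung. Of 11 genes on the isoprenoid side branches 0 rose and 2 fell in each cultured group, Pdss1 of ubiquinone synthesis (-0.70 with EPZ5676 and -0.80 in Control) and Pggt1b, a geranylgeranyl transferase subunit (-0.28 and -0.31). None of the genes in these lists passed for EPZ5676 against Control. The smallest p in each belonged to Elovl6 (-0.31, edgeR adjusted p = 0.52), Gramd1a (-0.23, 0.59), Abcg4 (-0.67, 0.717), Tmem97 (-0.18, 0.853) and Rce1 (0.19, 0.853).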

How the data were processed

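RNA was sequenced from 9 libraries, 3 per group, made from total RNA with a Vazyme VAHTS Universal V8 kit, per the labels' protocols. RSEM, Bowtie2 and mm10 appear in the submitters' processing notes. For strand use in counting, the setting was "not given in the sources used here", and if strand was ignored, reads of a gene and an antisense partner may mix. The authors deposited expected counts per gene, which are estimates that divide reads between similar sequences, and TPM, which the authors scaled by length and depth. Fold changes and tests were computed from the expected counts rounded to whole numbers.

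Genes passing filterByExpr (minimum count 10) were scaled by TMM and fitted by group over all 9 libraries (6 residual degrees of freedom) with edgeR 4.0.16 in R 4.3.3 (robust quasi-likelihood F test, legacy method, two-sided), with Benjamini-Hochberg adjustment over 15158 genes and a threshold of 0.05. The SE was derived from the F statistic, and intervals cover 95%. Log2 CPM used a prior count of 2. Libraries of a group differed by more than sampling noise (chi-square of 2.56 to 28.5 per degree of freedom over the 9 pairs). The spread between libraries (biological coefficient of variation) was 18.8% in EPZ5676, 24.5% in Control and 10.9% in E11.5 lung. The fit used a shared estimate for these unequal groups. Positions came from GENCODE M21 (GRCm38, the assembly of mm10), and promoters from RefSeq on GRCm38.p6. Alternatives used RLE and upper-quartile scaling, other filters, DESeq2 1.42.0, limma 3.58.1 on TPM, a replicate block, Xist as a covariate and leaving out each library. Figures used matplotlib 3.10.9, and the scripts were tested on simulated data.

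The members, lists and tests were chosen with earlier results of these data known. Values in every library are given for the 3 members of smallest p for EPZ5676 against Control in each role, and for up to 4 called in Control against E11.5 with the largest change. From each pathway list came up to 2 called genes per direction in Control against E11.5 and the gene of smallest p for EPZ5676 against Control. Dot1l, Nkx2-1 and Xist were added as checks.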

Additional observations from a re-analysis of the deposited data

How the results depend on the processing

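Of the 15 members called in EPZ5676 explants against E11.5 lung, 6 were called under all 16 alternatives (Ebp, Insig2, Npc2, Abca1, Abcg1 and Mylip), and of the 22 called in Control explants against E11.5 lung 10 were (Fdps, Lss, Cyp51, Msmo1, Nsdhl, Ebp, Npc2, Abca1, Abcg1 and Mylip). For EPZ5676 against Control 1 member was lower with DESeq2 and 1 without a filter on low counts, beside 16 and 9 of all genes. With limma on log2(TPM + 1) or log2(TPM + 0.1), 7 members were higher and 0 lower in EPZ5676 explants, and 14 were higher in Control explants, against E11.5 lung. The median for Control against E11.5 was then 0.54 and 0.55 for synthesis, and 0.39 for SREBP control with log2(TPM + 1). With at least 50 counts in 3 libraries, which left out 1 member, Nr1h3, the LXR median over E11.5 was 0.78 with EPZ5676 and 0.68 in Control. Leaving out 1 library gave 8 to 19 members higher with EPZ5676 (19 without EPZ5676 2, 8 without EPZ5676 1 or E11.5 2, 9 without EPZ5676 3 or E11.5 1) and 16 to 22 in Control over E11.5. The synthesis median was -0.38 to -0.096 for EPZ5676 against Control, and 0.53 to 0.62 for Control against E11.5. The SREBP median was -0.32 to -0.15 for EPZ5676 against Control and 0.25 to 0.50 for EPZ5676 against E11.5. Some values near 0 changed sign. On log2(TPM + 1) and log2(TPM + 0.1), EPZ5676 against Control gave 0.035 and 0.037 for Pmvk, 0.042 and 0.050 for Tm7sf2 and 0.18 and 0.18 for Soat1. Control against E11.5 gave -0.031 and -0.032 for Acat2 and -0.056 and -0.058 for Soat1. EPZ5676 against E11.5 gave -0.071 and -0.073 for Npc1 and 0.12 and 0.12 for Soat1. Pmvk was at 0.083 with Xist as a covariate, and Soat1 in EPZ5676 against E11.5 at 0.0007 with upper-quartile scaling, 0.012 without a filter, 0.010 with the replicate block and 0.0002 with the newer quasi-likelihood method. With 1 library left out, EPZ5676 against Control ranged from -0.34 to 0.13 for Mvk, -0.16 to 0.092 for Pmvk, -0.27 to 0.023 for Fdps, -0.32 to 0.13 for Tm7sf2, -0.35 to 0.054 for Dhcr7, -0.20 to 0.0083 for Npc2, -0.018 to 0.12 for Nr1h2 and -0.14 to 0.14 for Mylip. Control against E11.5 ranged from -0.10 to 0.16 for Acat2 and -0.066 to 0.19 for Soat1. EPZ5676 against E11.5 ranged from -0.25 to 0.0015 for Acat2, -0.21 to 0.077 for Hmgcs1, -0.069 to 0.39 for Mvk, -0.075 to 0.28 for Idi1, -0.063 to 0.22 for Sqle, -0.023 to 0.14 for Npc1 and -0.17 to 0.093 for Soat1. The causes were not tested. Same-numbered EPZ5676 and Control libraries had deviations from their group means correlated at 0.457, 0.079 and -0.047. EPZ5676 1 was closest to Control 1, EPZ5676 2 to Control 3 and EPZ5676 3 to Control 2. These values, from groups of 3, do not settle whether the numbers pair the libraries. With the replicate block 0 members passed for EPZ5676 against Control, 13 were higher in EPZ5676 explants and 21 in Control explants than in E11.5 lung. With 3 libraries a group, small differences between EPZ5676 and Control were not detectable for many members.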

Other observations

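Of 7 oxysterol enzymes 5 could be tested, and 0 passed in any comparison with edgeR's quasi-likelihood test, with 0, 1 and 0 at an unadjusted p under 0.05 for EPZ5676 against Control, Control against E11.5 and EPZ5676 against E11.5. Hsd3b7, which acts on oxysterols on the way to bile acids, averaged 5.71 ± 2.46 TPM in EPZ5676 explants, 8.06 ± 1.27 in Control explants and 7.74 ± 1.16 in E11.5 lung (SD, n = 3 each), and had the smallest p of them for EPZ5676 against Control (log2 fold change -0.40 ± 0.28, edgeR adjusted p = 0.849). The mitosis markers moved against the cholesterol genes in culture. They summed to 1225 to 1293 TPM in EPZ5676 explants, 1045 to 1307 TPM in Control explants and 1461 to 1615 TPM in E11.5 lung. Relative to E11.5 lung 6 of 10 fell with EPZ5676 and 7 of 10 in Control, beside 17.9% and 16.6% of all tested genes.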
